A study of Mus musculus with 50 samples.

Results

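The 3 whole mouse brains labelled ird1/ird1 were compared with the 3 labelled wt for the Gtf2ird1 comparison, all taken at E13.5 (days of embryonic development) from the FVB/ANTJ strain. These 6 libraries were chosen by their genotype labels, out of 50 samples in the series, of which 18 were RNA libraries. A wt label names no mutant allele, and an ird1/ird1 label names the mutant Gtf2ird1 allele on both sides of the slash. A further 3 brains labelled ird1, read as carrying 1 mutant allele, come from the same comparison. They were kept in the fit and are given beside the results. A closing comparison uses 9 brains of the same age and strain from the cross for Gtf2i, with 3 each labelled wt for that comparison, gtf2i and gtf2i/gtf2i. The labels do not say what the ird1 allele alters in the gene, nor the sex of the embryos. They list each brain as a sample of its own and say no more about how the replicates were obtained, so p-values measure the spread between these samples.

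GTF2IRD1 is a DNA-binding transcription factor of the TFII-I family, with GTF2I and GTF2IRD2. In humans the genes of all 3 proteins lie side by side in or at the edge of the chromosomal region whose loss causes Williams syndrome, and in the mouse they are neighbours on chromosome 5. GTF2IRD1 recognises the DNA core GGATTA and is known to bind the promoter of its own gene and to hold down its transcription. The mouse brain of this age holds dividing radial glia and many newly made neurons.

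The start region of Gtf2ird1 is shown because the gene with the clearest difference between the genotypes was Gtf2ird1 itself. The sequences are from RefSeq, assembly GRCm38.p6, on the minus strand of chromosome 5 and read 5′ to 3′. Capitals mark each GGATTA, or its reverse complement TAATCC. The first run ends where the longest annotated transcript begins, and the other 2 runs lie inside that transcript, upstream of the start used for the window.
Gtf2ird1, before the annotated gene, chr5:134456868-134456966: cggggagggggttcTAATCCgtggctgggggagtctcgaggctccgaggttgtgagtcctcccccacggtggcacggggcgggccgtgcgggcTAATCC
Gtf2ird1, match inside the gene, upstream, chr5:134456805-134456834: tgcgcggggctgGGATTAgggccggggcga
Gtf2ird1, match inside the gene, downstream, chr5:134456768-134456797: gcaatcttactgGGATTAcagaacaaagag
The 250 bases before the annotated start thus hold 4 matches, and 2 of them precede the annotated gene. Of 32851 start windows of that length in the RefSeq table, 6.25% hold at least 1 match on either strand and 2 windows (0.00609%) hold at least 4. The windows of Gtf2i and Gtf2ird2 hold 0. A match is a description of letters and was not tested as a binding site here.

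Gtf2ird1 (ENSMUSG00000023079, chr5:134357661-134456867) rose in ird1/ird1. Levels are given in CPM, the read count of a gene scaled to a common library size. The wt libraries were at 90.4, 115 and 90.4 CPM and the ird1/ird1 libraries at 218, 222 and 226 CPM. The lowest ird1/ird1 value thus stood well above the highest wt value, and the ird1 libraries lay between them at 148, 154 and 147 CPM. Against the wt mean of 98.7 ± 14.4 CPM (SD, n = 3), the ird1/ird1 mean of 222 ± 4.07 CPM (SD, n = 3) was 224.8%. The change was 1.18 on the log2 scale (SE 0.0974), and the quasi-likelihood test of edgeR gave 3.92e-05 after Benjamini-Hochberg adjustment over 11708 genes. Of that change, 0.61 lay between wt and ird1 (edgeR unadjusted p 1.37e-05) and 0.57 between ird1 and ird1/ird1 (edgeR unadjusted p 2.07e-05, adjusted p 0.242). An exact two-sided permutation test on the CPM gave 0.1, the smallest p that 3 libraries against 3 allow. Reads were counted over the whole gene, so the count shows neither where in the transcript they fall nor how much protein was made.

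**Figure D1:**
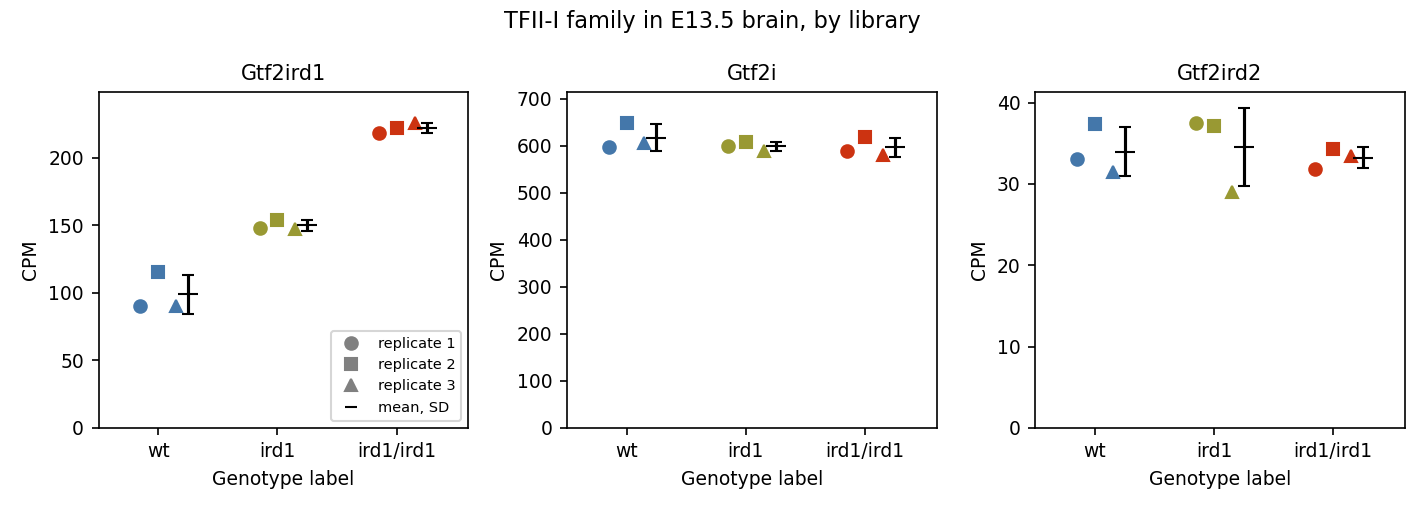
Level of Gtf2ird1, Gtf2i and Gtf2ird2 in CPM (vertical axis, from 0) in each library of the 3 genotype labels (horizontal axis), with the mean and SD of each group in black. The ird1/ird1 libraries of Gtf2ird1 lie between 218 and 226 CPM and the wt libraries between 90.4 and 115 CPM, while the groups overlap for the other 2 genes.

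No difference was detectable for the other family members. Gtf2i was at 596, 649 and 605 CPM in wt and at 589.6, 619 and 581 CPM in ird1/ird1, and its log2 value of -0.05 (SE 0.0837) had an adjusted p of 0.766 (edgeR). Gtf2ird2 was at 33.1, 37.3 and 31.5 CPM in wt and at 31.9, 34.4 and 33.5 CPM in ird1/ird1, and its log2 value of -0.02 (SE 0.128) had an adjusted p of 0.942 (edgeR). The groups overlapped for both.

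Across the table, 1 of 11708 genes passed an adjusted p of 0.05, which is 0.00854%, and that gene was Gtf2ird1. The next smallest adjusted p was 0.296 (edgeR). An unadjusted p under 0.05 was reached by 1886 genes (16.1%), of which 902 (7.7%) were higher and 984 (8.4%) lower in ird1/ird1. The wt and ird1/ird1 libraries did not overlap for 3148 genes (26.9%), with 1667 (14.2%) higher and 1481 (12.6%) lower. These shares are the background for the gene lists below. Differences were small, with 213 genes past 0.5 on the log2 scale in either direction and 5 past 1, and a median absolute log2 fold change of 0.159. In fits that left out 1 library, 877 genes reached it when wt replicate 2 was left out (745 of them among the 1886), 983 for ird1/ird1 replicate 1 (833) and 1194 for ird1/ird1 replicate 2 (1004). Hist1h4f passed with DESeq2 (adjusted p 0.0231), and so did Hist1h4a (adjusted p 0.0452). With limma-voom and sample weights Hist1h2bl passed (adjusted p 0.0421).

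Total counts were between 3239117 and 7371483 per library. The library of lowest total, wt replicate 2, stood apart from the other 8. It lay at 36.9 on the first principal component, which held 48.5% of the variance, where the ird1/ird1 libraries lay between -13.4 and -9.73 and the other wt libraries at -1.9 and -1.03. It was not the only library to differ from its group. Genes under 500 bases held 5.36% of its counts and 4.37% of those of ird1/ird1 replicate 3, against 2.65% and 2.22% in ird1/ird1 replicates 1 and 2. Leaving out ird1/ird1 replicate 3 gave 1275 genes at an unadjusted p under 0.05 (edgeR). A relation with transcript length also ran through the comparison. The 106 genes under 500 bases had a median log2 fold change of -0.31, with 36 lower and 0 higher at an unadjusted p under 0.05. The 1288 genes of 7000 bases or more had a median of 0.18, with 317 higher and 17 lower. Across 11700 genes, which are not independent replicates, log2 fold change and log2 transcript length correlated with r of 0.436 and rho of 0.426, and without wt replicate 2 with r of 0.387. Without wt replicate 2, 422 genes were higher and 455 lower at an unadjusted p under 0.05. With the trend of length smoothed out of each library, these counts were 592 and 917. Such values are given beside gene groups below, and for the medians of 41 lists in the plot of list medians. The length relation moved with the genotype labels, and their parts in a group's difference cannot be told apart here. Titles of the samples begin with 11610 or 11902, whose meaning the labels do not give, and each genotype has 2 libraries of the first number and 1 of the second. Markers of brain were present in all libraries, with 10 of 10 listed genes in the table at a summed 4308 to 4669 CPM in the wt and ird1/ird1 libraries.

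**Figure D2:**
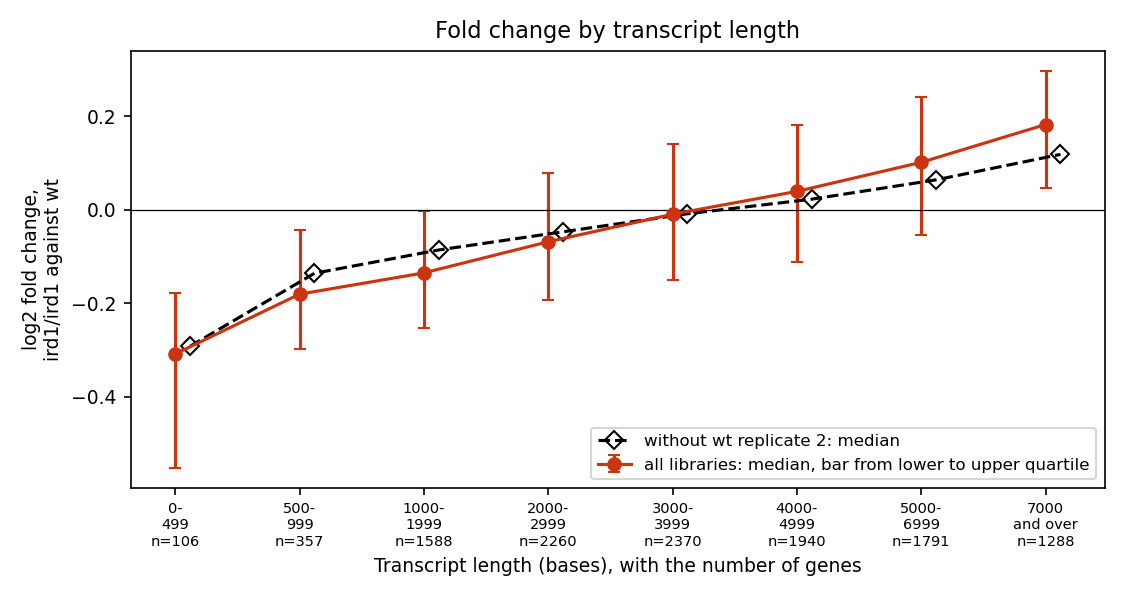
Median log2 fold change of ird1/ird1 against wt (vertical axis) for genes grouped by transcript length in bases (horizontal axis, with the number of genes), with bars from the lower to the upper quartile. The median goes from -0.31 in the shortest group to 0.18 in the longest with all libraries, and from -0.29 to 0.12 without wt replicate 2.

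Replication-dependent histones had the lowest median log2 fold change of 41 gene lists, a number that leaves out lists added later in the work, of which small structured RNAs and the H1 and H4 histone classes lay lower. All lists were chosen with results of these data known, so the rank describes these lists only. These genes supply the core histones H2A, H2B, H3 and H4 and the linker histone H1 during DNA replication, and their messages end in a stem-loop in place of a poly(A) tail, so libraries made from RNA depleted of ribosomal RNA retain them. Of 65 listed genes 53 were in the table, and 39 of those (73.6%) were lower at an unadjusted p under 0.05, against 8.4% of all genes. The median log2 fold change of the 53 was -0.34, against -0.0037 over all genes, and 51 lay below 0. Members higher at that p numbered 0, and 0 members passed the adjusted threshold (edgeR). The summed level was 12880, 18000 and 14460 CPM in wt, 11770, 13310 and 11640 CPM in ird1, and 9925, 10020 and 12840 CPM in ird1/ird1. The ird1/ird1 libraries thus lay below the lowest wt library, with ird1/ird1 replicate 3 just under wt replicate 1.

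Single histone genes followed the sum. Hist1h4f, which encodes histone H4, had the smallest p of any gene other than Gtf2ird1. Its level was 293, 377 and 336 CPM in wt and 198, 185 and 274 CPM in ird1/ird1, with no overlap. The log2 fold change was -0.61 (SE 0.132, edgeR unadjusted p 0.000303, adjusted p 0.296). Hist1h4a, also an H4 gene, was at 358, 419.9 and 404 CPM in wt and 257, 262 and 325 CPM in ird1/ird1, a log2 difference of -0.49 (SE 0.112). Hist1h4b had a log2 difference of -0.49 (SE 0.111) and Hist1h2ak, an H2A gene, one of -0.45 (SE 0.112), both without overlap. The linker histone genes Hist1h1c and Hist1h1e had differences of -0.63 and -0.52 with overlapping groups. Hist1h1c was at 924, 1920 and 1025 CPM in wt, so wt replicate 2 held about as much as the other wt libraries together, and its difference was -0.23 without that library. Copies of a histone class are nearly identical, and how reads fitting several copies were counted is not stated, so levels of single members are uncertain.

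By histone class, lists added after values had been seen gave a median of -0.59 for 5 H1 genes, -0.30 for 13 H2A genes, -0.29 for 14 H2B genes, -0.31 for 9 H3 genes and -0.50 for 12 H4 genes. At an unadjusted p under 0.05, 5 of 5 H1, 6 of 13 H2A, 10 of 14 H2B, 7 of 9 H3 and 11 of 12 H4 genes were lower. The class medians were -0.27, -0.34, -0.31, -0.30 and -0.40 without wt replicate 2, so H1 went from the lowest of the 5 to the nearest to 0. With the length trend removed they were -0.42, -0.02, -0.08, -0.10 and -0.29, with 5, 2, 2, 2 and 11 genes lower. The median of all 53 was again -0.34 without wt replicate 2, with 47 lower at that p. Among the libraries of title number 11610 alone it was -0.43, and between the single wt and ird1/ird1 libraries of 11902 it was -0.18. With the length trend removed the median was -0.11, with 22 lower. The other 407 genes under 1000 bases had a median of -0.19, with 81 lower (19.9%), and here the removal of the length trend gave 0.03. Without wt replicate 2 these 407 had a median of -0.14, with 51 lower. The histone genes had a median length of 572 bases. How far the length trend and the genotype each contribute was not tested. The 10 replacement and variant histone genes in the table, also an added list, had a median of -0.18 with 4 lower, among them H2afx, a variant linked to DNA repair and chosen after its values were seen, at 389, 501 and 437 CPM in wt and 310, 345 and 359 CPM in ird1/ird1, a log2 difference of -0.38. This list had a median of -0.14 with 2 lower without wt replicate 2, and of -0.12 with 3 lower with the length trend removed.

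Other genes of dividing cells were examined beside the histones. Of 50 cell cycle genes, 3 were higher and 2 lower at an unadjusted p under 0.05, with a median of -0.03. These counts were 2 and 1 without wt replicate 2, and 2 and 0 with the length trend removed. The 3 higher were Cenpe, a kinetochore motor, Cenpf, a kinetochore protein, and Top2a, the DNA topoisomerase of dividing cells. Top2a was at 298, 249 and 329 CPM in wt and 342, 367 and 366 CPM in ird1/ird1, a log2 difference of 0.29 (SE 0.13). The 2 lower were Cdkn1a, an inhibitor of the cell cycle (-0.30), and Cdk4, a kinase of the G1 phase (-0.20). Of 18 p53 targets, Mdm2 (0.30), Rrm2b (0.55) and Trp53inp1 (0.40) were higher and Bbc3 (-0.33) and Cdkn1a lower at that p, and the median was 0.01. Rrm2b had a low level, 4.444 to 5.332 CPM in wt. Leaving out wt replicate 2 gave 2 higher and 0 lower p53 targets, with 0.22 for Trp53inp1. In the cell cycle list Top2a then had 0.19.

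Small structured RNAs lay low as well. The 17 such genes, a list added after values had been seen and drawn by symbol, had a median log2 fold change of -0.61 with 10 lower at an unadjusted p under 0.05, and 17 of 17 below 0. Their median length was 184 bases, and the median was -0.37 without wt replicate 2, with 6 lower, and -0.21 with the length trend removed, with 5 lower. Scarna2, a guide RNA of Cajal bodies, was at 784, 1120 and 870 CPM in wt and 616, 551 and 737 CPM in ird1/ird1, and the log2 difference was -0.54 (SE 0.133). Rpph1, the RNA of ribonuclease P, was at 283, 614 and 250 CPM in wt and 188, 142 and 233 CPM in ird1/ird1. Its difference of -1.02 (SE 0.27) was -0.51 without wt replicate 2, where it is highest. Terc, the telomerase RNA, had -0.65 (-0.37 without that library). Rn7sk, which restrains transcription elongation, had -0.33 with no overlap. Malat1, a long nuclear RNA, lay the other way, at 3753, 2680 and 3591 CPM in wt and 4636, 3861 and 4141 CPM in ird1/ird1, a log2 difference of 0.33 (SE 0.153), and of 0.20 without wt replicate 2.

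Genes of the ribosome and of energy metabolism also had medians below 0. For the 74 cytosolic ribosomal protein genes the median was -0.16, with 26 lower (35.1%) and 1 higher at an unadjusted p under 0.05. Rplp2, of the ribosomal stalk, was at 200, 225 and 200 CPM in wt and 164, 158 and 182 CPM in ird1/ird1, a log2 difference of -0.31 (SE 0.0925). Rpl10a had -0.46, Rps15 -0.32 and Rps14 -0.44 (-0.20 without wt replicate 2), while the 1 higher member, Rpl30, had 0.42. Ribosomal protein genes have many processed copies that can share reads, so single values are uncertain. Of the 70 nuclear genes of oxidative phosphorylation, 21 (30%) were lower and 0 higher, with a median of -0.16. Examples are Ndufb7 (-0.49) and Ndufb10 (-0.36) of respiratory complex I and Cox4i1 (-0.34) of cytochrome oxidase, at -0.27, -0.26 and -0.19 without wt replicate 2. Glycolysis had 6 of 22 genes lower and 0 higher, with a median of -0.15, among them Gapdh (-0.47), Eno2 (-0.39) and Pkm (-0.25), at -0.35, -0.29 and -0.10 without that library. The medians of these lists without wt replicate 2 were -0.15, -0.14 and -0.10, with 16, 12 and 3 members lower. With the length trend removed they were -0.03, -0.02 and -0.10, with 5, 5 and 3 lower.

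Genes of the mitochondrial genome, which encode core subunits of the same complexes, lay apart. The median of the 7 in the table was 0.39, but 0 passed even an unadjusted p of 0.05, and all their groups overlapped. Their sum was 6007, 2330 and 6705 CPM in wt and 6812, 5769 and 6855 CPM in ird1/ird1, and wt replicate 2 was the lowest of the 9 libraries. The median was 0.04 without that library and -0.02 among the libraries of title number 11610. It was 1.70 between the single wt and ird1/ird1 libraries of 11902, the former being wt replicate 2, and 0.51 with the length trend removed, with 2 genes higher at that p. This library also had the highest summed histones, ribosomal proteins and nuclear oxidative phosphorylation genes of the 9.

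**Figure D3:**
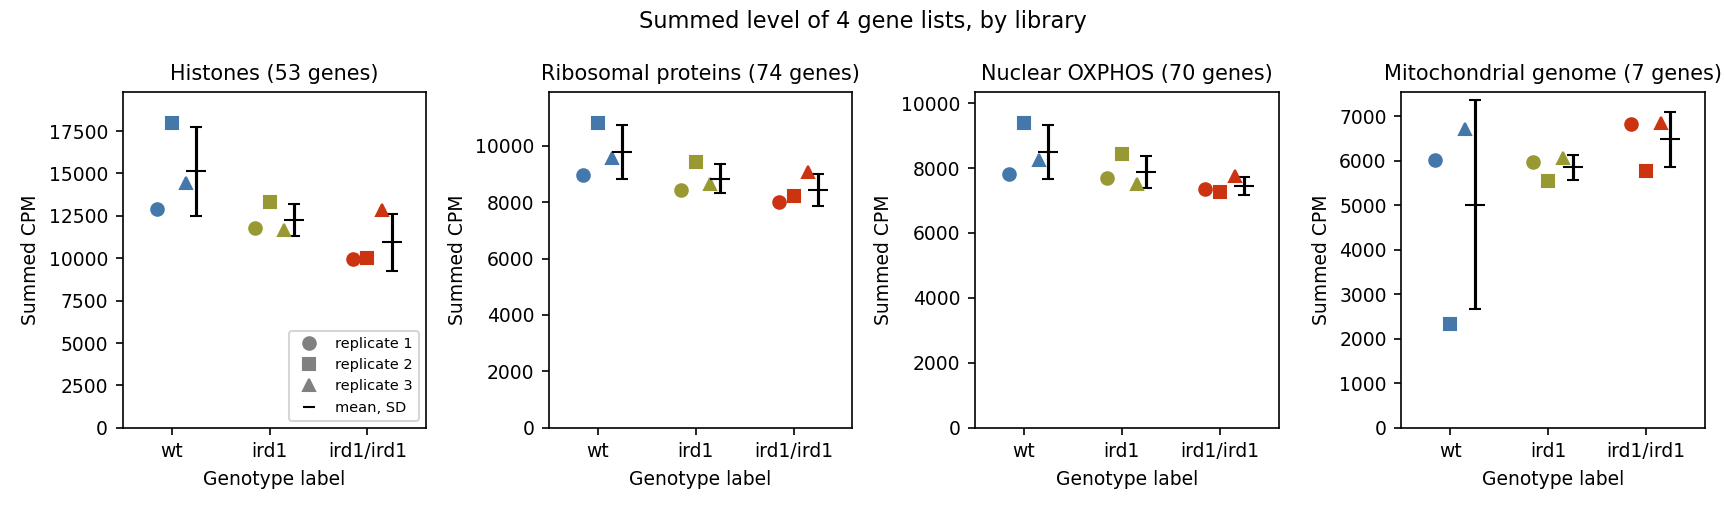
Summed CPM (vertical axes, from 0) of replication-dependent histones, cytosolic ribosomal proteins, nuclear genes of oxidative phosphorylation (OXPHOS) and mitochondrial genome transcripts in each library of the 3 genotype labels, with mean and SD in black. The wt replicate 2 square is the highest point in the first 3 panels, at 18000 CPM for histones, and the lowest in the fourth, at 2330 CPM.

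Among single genes of at least moderate level and without overlap, the 12 with the smallest p on the higher side did not pass adjustment (edgeR adjusted p 0.296 each). Their log2 fold changes lay between 0.34 and 0.83. Several encode transcription factors of neurons or neural crest. Zfhx4, a large zinc finger and homeodomain factor, was at 169, 121 and 159 CPM in wt and 227, 198 and 238 CPM in ird1/ird1, a log2 difference of 0.55 (SE 0.131). Ebf1, a factor of differentiating striatal neurons and other lineages, was at 67.7, 49.0 and 58.7 CPM in wt and 89.1, 75.04 and 96.6 CPM in ird1/ird1 (0.55, SE 0.13). Tfap2a, known for its role in neural crest, was at 17.2, 14.0 and 10.1 CPM in wt and 24.4, 19.8 and 30.5 CPM in ird1/ird1 (0.83, SE 0.203). Nhlh2, a helix-loop-helix factor of young neurons, had a difference of 0.43.

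The netrin receptor gene Unc5c, which steers growing axons, was at 47.9, 36.3 and 40.4 CPM in wt and 63.0, 57.3 and 60.7 CPM in ird1/ird1 (0.52, SE 0.123). Asxl3 (0.50) and Asxl2 (0.46) encode Polycomb-related chromatin proteins, and Hspa4l (0.43) a chaperone of the heat shock family. Ubxn2b (0.56), Fam196b (0.77), Ap1ar (0.37) and Mast4 (0.34) complete the 12. The ird1 libraries of Zfhx4 were at 212, 158 and 198 CPM and those of Ebf1 at 85.6, 71.1 and 73.8 CPM. Without wt replicate 2, which was the lowest wt library for 8 of the 12, the differences lay between 0.35 and 0.83. With the length trend removed they lay between 0.14, for Mast4, and 0.84, for Tfap2a. Zfhx4 then had 0.31, Unc5c 0.34, Asxl3 0.28, Asxl2 0.25 and Hspa4l 0.25, while Ebf1 had 0.46 and Nhlh2 0.41.

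The 12 with the smallest p on the lower side were led by histones and had log2 fold changes between -0.77 and -0.33 (edgeR adjusted p 0.296 each). They held 4 histone genes and Scarna2, described above, and 7 others. Slc17a7, the vesicular glutamate transporter VGLUT1, was at 41.1, 41.7 and 40.0 CPM in wt and 32.6, 28.7 and 25.3 CPM in ird1/ird1, a log2 difference of -0.50 (SE 0.124). Mpped1, a gene expressed in the developing cortex, was at 106, 113 and 113 CPM in wt and 91.7, 82.7 and 77.7 CPM in ird1/ird1 (-0.39, SE 0.0904). Their ird1 libraries were at 30.1, 36.1 and 33.9 CPM and at 92.9, 92.6 and 93.7 CPM. Without wt replicate 2 the differences were -0.49 and -0.38, and with the length trend removed -0.47 and -0.38.

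Trim11, a ubiquitin ligase gene, was at 37.6, 42.3 and 35.0 CPM in wt and 27.3, 24.6 and 28.1 CPM in ird1/ird1 (-0.51, SE 0.12). Gsk3a, which encodes a kinase of glycogen and Wnt signalling, was at 122, 135 and 128 CPM in wt and 102, 99.4 and 103 CPM in ird1/ird1 (-0.33, SE 0.0828). Ankrd34a (-0.66), 1600020E01Rik (-0.50) and Gm24146 (-0.77) made up the rest. Gm24146 is 321 bases long and had -0.47 with the length trend removed.

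**Figure D4:**
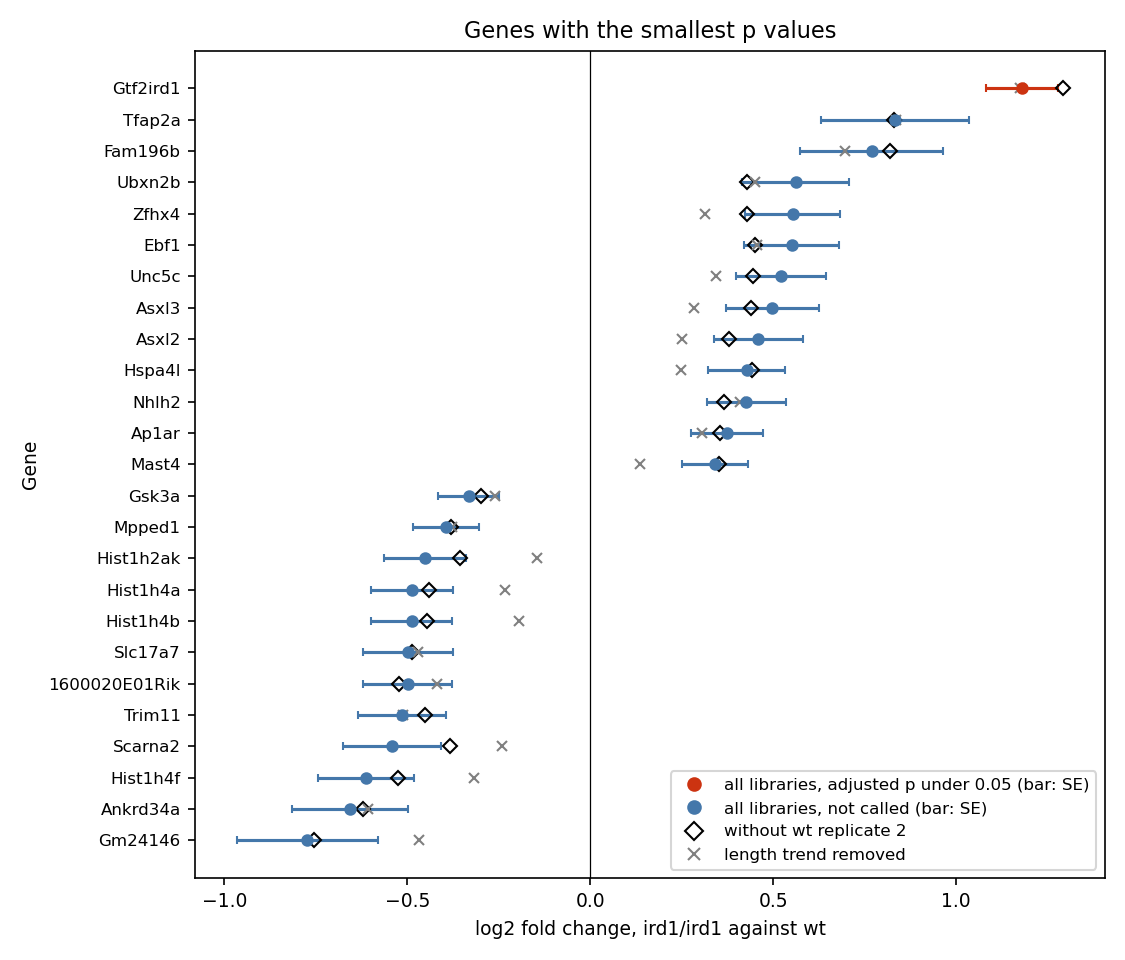
Log2 fold change of ird1/ird1 against wt (horizontal axis) for Gtf2ird1 and the 24 genes of smallest p (vertical axis), with SE bars, and the same value without wt replicate 2 (diamonds) and with the length trend removed (crosses). Gtf2ird1, at 1.18, passed the adjusted threshold and the other 24 did not.

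The neighbours of Gtf2ird1 on chromosome 5 were examined next. Coordinates are from RefSeq, assembly GRCm38.p6. Of the 10 measured genes on each side, 0 passed adjustment, and the nearest, Gtf2i (chr5:134237832-134317678) on one side, overlapped between the groups. Farther out on that side Tyw1 (-0.27) and Galnt17 (-0.23) were lower without overlap, with unadjusted p of 0.0666 and 0.0881 (edgeR), and Tyw1 had -0.12 without wt replicate 2 and Galnt17 -0.12 without ird1/ird1 replicate 3. On the other side Clip2 (chr5:134489383-134553767), a microtubule linker gene, was at 342, 516 and 336 CPM in wt and 322, 305 and 298 CPM in ird1/ird1, with -0.36 on the log2 scale (SE 0.137), and -0.14 without wt replicate 2. Eln (chr5:134702595-134747368), which encodes elastin, was at 18.1, 25.3 and 18.7 CPM in wt and 13.7, 13.2 and 12.1 CPM in ird1/ird1. Its difference of -0.63 (SE 0.176, edgeR adjusted p 0.296) was -0.50 without wt replicate 2 and -0.64 with the length trend removed. The ird1 libraries of Eln were at 12.0, 17.7 and 14.5 CPM.

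Between Clip2 and Eln, Eif4h (-0.13) and Limk1 (-0.21) were lower without overlap, and so were Dnajc30 (-0.37) and Vps37d (-0.30) beyond Eln. Leaving out wt replicate 2 gave -0.08 for Eif4h, -0.09 for Limk1 and -0.18 for Vps37d. Of 18 genes of the Williams syndrome region in the table, Gtf2ird1 was higher and 4 were lower at an unadjusted p under 0.05, namely Eln, Clip2, Vps37d and Dnajc30. The median was -0.15, and without wt replicate 2 it was -0.11, with 1 lower. In the 12 genes of the flanks 3 were lower, Por (-0.31), Mdh2 (-0.28) and Tmem120a (-0.37), 0 were higher, and the median was -0.15. Leaving out wt replicate 2 gave 1 lower, differences of -0.18, -0.17 and -0.21 for these genes and a median of -0.04.

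Genes whose proteins have been reported to bind GTF2IRD1 were followed as a list of 22. At an unadjusted p under 0.05, 8 were higher (36.4%) and 0 lower, with a median of 0.14. Trip12, a ubiquitin ligase gene, was at 307, 221 and 307 CPM in wt and 385, 343 and 349 CPM in ird1/ird1, a log2 difference of 0.36 (SE 0.128). The zinc finger genes Zmym2 (0.37) and Zmym5 (0.38) and the nuclear import gene Kpna1 (0.30) were among them. In each of these 4 genes wt replicate 2 was the lowest library, and without it they had 0.23, 0.16, 0.21 and 0.16. In that fit 1 of the 22 was higher at that p and the median was 0.09. With the length trend removed 3 were higher and the median was 0.06, with 0.18 for Trip12 and 0.25 for Zmym2.

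Regional and neuronal genes had members on both sides. Among 18 telencephalon patterning genes 3 were higher at an unadjusted p under 0.05, with Gli3 (0.39) and Nr2f2 (0.22), and 3 lower, with Six3 (-0.23) and Emx1, a factor of the dorsal cortex. Leaving out wt replicate 2 gave counts of 1 and 2, and 0.18 for Gli3. With the length trend removed they were 0 and 3. Emx1 was at 61.6, 78.0 and 73.4 CPM in wt and 50.4, 54.4 and 53.7 CPM in ird1/ird1, a log2 difference of -0.42 (SE 0.145). Of 28 genes of the ventral telencephalon 5 were higher and 5 lower at an unadjusted p under 0.05. The higher ones included Foxp1 (0.41), Foxp2 (0.56) and Meis1 (0.39), factors of striatal and other neurons, and the lower ones Dlx1 (-0.25), Dlx2 (-0.28) and Nkx2-1 (-0.37), factors that specify ventral progenitors and interneurons. The ventral list had 4 higher and 3 lower without wt replicate 2, and with the length trend removed 3 and 5. Dlx1 had -0.16 and Nkx2-1 -0.22 without that library. Dlx2 was at 125, 133 and 133 CPM in wt and 96.0, 109.8 and 117 CPM in ird1/ird1.

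Of 25 genes of intermediate progenitors and cortical neurons, Neurod4 (0.58) and Nhlh2 were higher and Slc17a7, Neurod2 (-0.29) and Trp73 (-0.30) lower at that p, and the median was 0.07. Neurod4 lay near the lowest level of the table, at 3.865 to 4.815 CPM in wt. The counts of this list were 3 higher and 2 lower without wt replicate 2, where Neurod2 had -0.19, and with the length trend removed 2 and 4. Its median was -0.0031 and -0.01 in these fits. Of 35 pan-neuronal genes 8 were higher (22.9%, against 7.7% of all genes) and 1 lower, with a median of 0.13. Dcx, a microtubule protein of migrating neurons, was at 599, 359.6 and 583 CPM in wt and 789, 640 and 668 CPM in ird1/ird1. Its difference of 0.44 (SE 0.172) was 0.24 without wt replicate 2. Map2 (0.37), Scg3 (0.29) and Ncam1 (0.21) were the other named members that were higher at that p. Tubb3, a neuronal tubulin, had -0.22 and did not reach that p (edgeR unadjusted p 0.0588), and had -0.12 with the length trend removed. The pan-neuronal list had 7 higher and 0 lower without wt replicate 2, and with the length trend removed 5 and 1.

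Genes of channels, receptors, vesicles and axon guidance passed an unadjusted p of 0.05 in shares near that of all genes (16.1%), on both sides of 0. The shares were 20.6%, 14.8%, 18.8% and 20.7%. Of 34 voltage-gated channel genes 4 were higher, among them Cacna2d1 (0.43), and 3 lower, among them Cacnb3 (-0.28). These channel counts were 4 and 0 without wt replicate 2, where Cacnb3 had -0.16, and with the length trend removed 1 and 4, where the median went from 0.06 to -0.09. Of 27 transmitter receptor genes 3 were higher, with Gria3 (0.51), and 1 lower, Grik5 (-0.35, and -0.15 without wt replicate 2). Without that library 0 were higher and 0 lower, and with the length trend removed 1 was higher and 2 lower. Of 32 genes of the synaptic vesicle 3 were higher, with Rab3c (0.45) and Pclo (0.42), and 3 lower, Sncb (-0.39), Syp (-0.28) and Unc13a (-0.23). The vesicle counts were 2 and 1 without wt replicate 2, where Unc13a had -0.15, and Sncb had -0.26 without ird1/ird1 replicate 2. With the length trend removed the vesicle counts were 1 and 2, with 0.12 for Pclo and 0.30 for Rab3c. Among 58 axon guidance genes 6 were higher, with Unc5c and Dcc (0.30), the receptors of netrin, and 6 lower, with Sema4b (-0.31) and Efnb3 (-0.21). These guidance counts were 3 and 2 without wt replicate 2, and with the length trend removed 3 and 13, where Dcc had 0.10 and Unc5c 0.34.

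In the Notch pathway 5 of 25 genes (20%) were lower and 1 higher at an unadjusted p under 0.05, with a median of -0.09. Hes5, a target of Notch in radial glia, was at 124, 151 and 125 CPM in wt and 93.5, 104 and 107 CPM in ird1/ird1, with -0.38 on the log2 scale (SE 0.0995). Jag2, a ligand, was at 69.4, 99.98 and 66.1 CPM in wt and 52.9, 56.4 and 53.8 CPM in ird1/ird1 (-0.51, SE 0.142). The glycosyltransferase genes Mfng (-0.29) and Lfng (-0.29), which modify Notch receptors, lay lower without overlap. The receptor genes Notch1 (-0.08) and Notch3 (-0.06) overlapped, and had -0.0044 and 0.06 without wt replicate 2. Without wt replicate 2 the 4 differences were -0.29, -0.32, -0.26 and -0.29, in the order named. The 1 higher gene was Maml2 (0.35), a coactivator. The Notch counts were 0 higher and 4 lower without wt replicate 2.

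In the Wnt pathway 4 of 41 genes were higher and 3 lower. The higher ones were Lgr4 (0.41), Apc (0.40), Fzd3 (0.40) and Wnt5a (0.33), and the lower ones the ligand genes Wnt7a (-0.37) and Wnt7b (-0.26) and the mediator gene Dvl1 (-0.27). Without wt replicate 2, Fzd3 had 0.21, Wnt5a 0.20 and Dvl1 -0.17. The Wnt counts were 2 and 2 without wt replicate 2, and with the length trend removed 1 and 6. Wnt7a was at 62.6, 64.7 and 70.3 CPM in wt and 51.2, 53.2 and 48.7 CPM in ird1/ird1. Of 29 radial glia genes 3 were higher and 3 lower, among them Ednrb (0.44) and Mt3 (-0.69). The counts in this list were 1 and 4 without wt replicate 2. Mt3 was at 46.7, 80.3 and 41.7 CPM in wt and 32.7, 29.3 and 40.0 CPM in ird1/ird1, and had -0.39 without wt replicate 2.

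Lists of chromatin regulators and of RNA-binding proteins had medians above 0. Of 70 chromatin regulators 11 were higher (15.7%) and 6 lower, with a median of 0.11, and a median length of 7008 bases. The chromatin counts were 5 and 2 without wt replicate 2, and with the length trend removed 5 and 12, with a median of -0.05. The methyltransferase genes Ash1l (0.46), Kmt2a (0.30) and Nsd1 (0.27) and the remodeller Chd7 (0.26) were higher, and the corepressor and deacetylase genes Rcor2 (-0.38), Hdac7 (-0.29) and Hdac5 (-0.30) lower. Rcor2 had -0.21 and Hdac5 -0.12 without wt replicate 2. Chd7 was at 219, 202 and 216 CPM in wt and 246, 249 and 267 CPM in ird1/ird1. Of 57 splicing and RNA-binding genes 9 were higher (15.8%) and 1 lower, with a median of 0.15. The median was 0.07, with 0 higher, without wt replicate 2, and with the length trend removed it was 0.10, with 3 higher. The median length of this list was 4010 bases. The RNA-binding scaffold gene Srrm2 was at 655, 505 and 624 CPM in wt and 687, 757 and 716 CPM in ird1/ird1, a log2 difference of 0.27. The difference was 0.17 for Srrm2 without wt replicate 2, and also 0.17 for Nsd1. Among 35 imprinted genes 5 were higher and 2 lower, and 2 and 1 both without that library and with the length trend removed. Ube3a, which encodes the ligase lost in Angelman syndrome, had 0.53, and 0.34 without wt replicate 2.

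Lists of regions behind the telencephalon and of stress were counted at an unadjusted p under 0.05. Of 22 immediate early and stress response genes 3 were higher, with Klf6 (0.28) and Hsp90aa1 (0.25), and 1 lower, Jund (-0.34), a share of 18.2%. Leaving out wt replicate 2 gave counts of 0 and 0, with -0.09 for Jund, 0.16 for Hsp90aa1 and 0.25 for Klf6. Of 21 midbrain and hindbrain genes 3 (14.3%) were higher, with Pax5 (0.43), a factor of the boundary between these regions, and 0 lower. Of 21 thalamus and hypothalamus genes 1 was higher, Lhx1 (0.29), and 1 lower. Of 25 genes of endoplasmic reticulum stress 2 were higher, the chaperone genes Hsp90b1 (0.28) and Pdia3 (0.19), and 1 lower. Hsp90b1 was at 176, 171 and 174.5 CPM in wt and 202, 208 and 222 CPM in ird1/ird1. Of 34 genes of BMP and TGF-beta signalling 2 receptor genes were higher, Bmpr1a (0.39) and Tgfbr1 (0.37), and in both wt replicate 2 was the lowest library. Without it they had 0.24 and 0.20, and 1 of the list was higher. In that fit the stress list of the endoplasmic reticulum had 3 higher and 0 lower, and the thalamus and hypothalamus list 2 and 1.

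Among 39 collagen and laminin genes 2 were higher and 1 lower at an unadjusted p under 0.05. These counts were 6 and 1 without wt replicate 2, with a median of 0.11, but 1 and 6 with the length trend removed, with a median of -0.09. Col12a1, a collagen of connective tissue, was at 21.8, 24.99 and 15.9 CPM in wt and 27.2, 27.9 and 63.1 CPM in ird1/ird1, so 1 ird1/ird1 library held most of its log2 difference of 0.92.

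**Figure D5:**
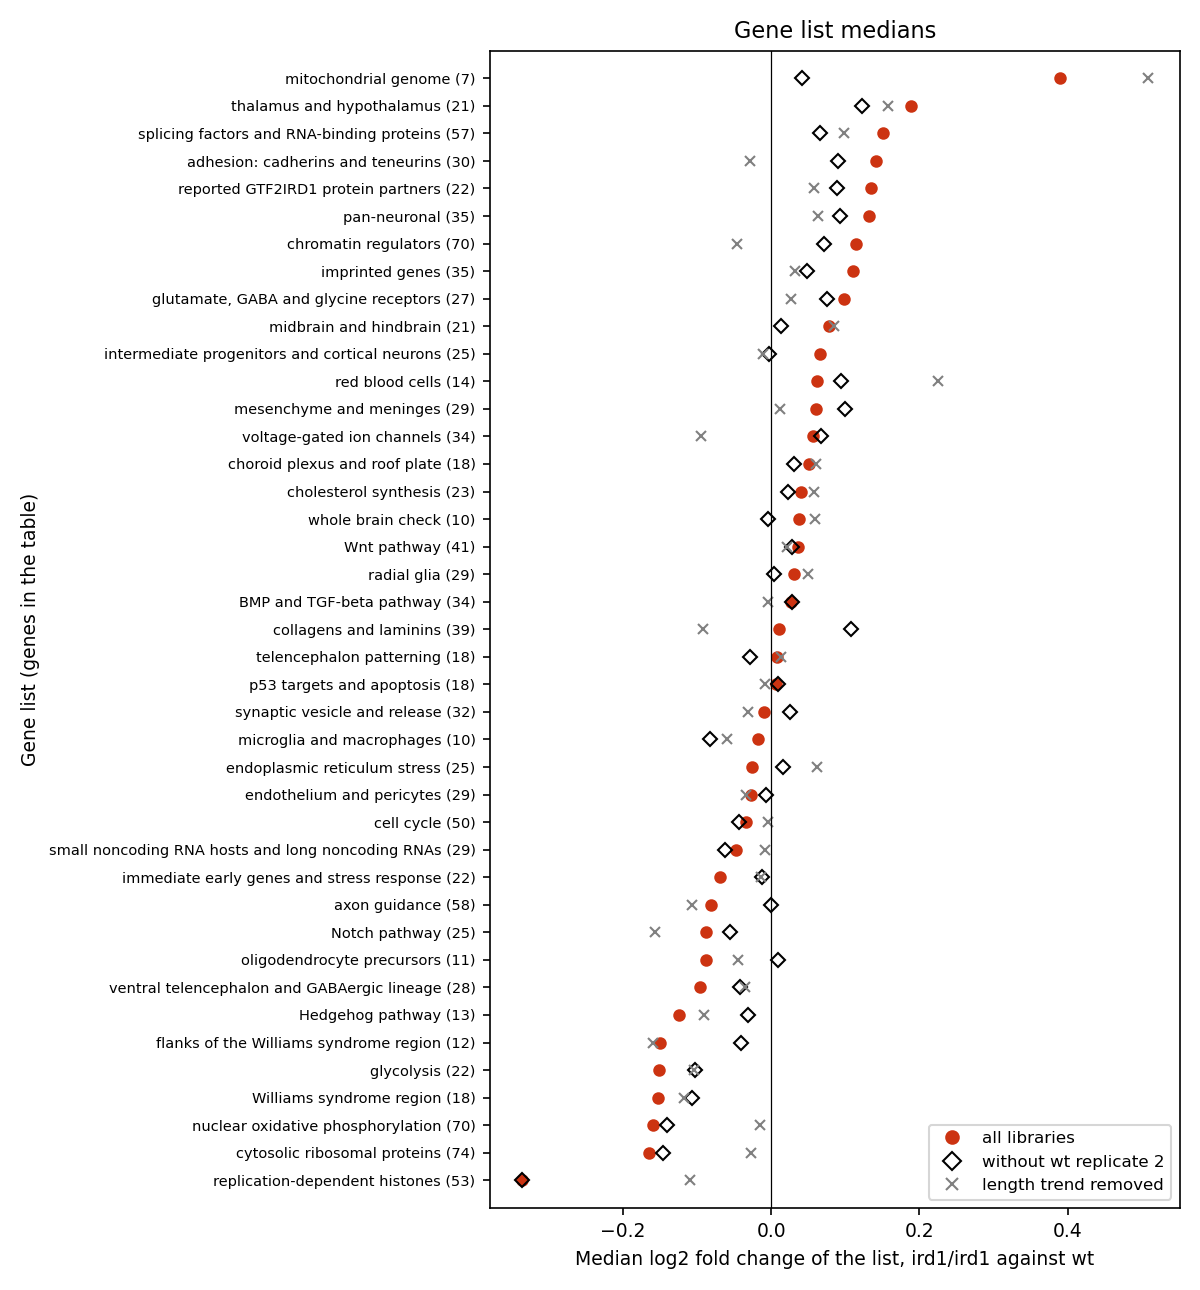
Median log2 fold change of ird1/ird1 against wt (horizontal axis) for the 41 gene lists with at least 7 genes in the table (vertical axis), with all libraries, without wt replicate 2 and with the length trend removed. Lists added later in the work are not shown. Among the 41, histones are lowest with all libraries, at -0.34, and the mitochondrial genome is highest, at 0.39.

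Markers of other cell types that a whole brain can hold were counted next at an unadjusted p under 0.05. Of 14 red blood cell genes 0 were, with a summed level of 3397 to 5301 CPM in wt and 3537 to 5814 CPM in ird1/ird1. In whole tissue, fewer cells of a type and less RNA per cell cannot be told apart. Of 29 mesenchyme and meninges genes 1 was higher and 0 lower, at a sum of 2876 to 3675 CPM in wt and 2861 to 3777 CPM in ird1/ird1. Without wt replicate 2, which had the highest of these wt sums, 5 were higher and 0 lower, with a median of 0.10. Of 29 endothelium and pericyte genes 1 was higher, Erg (0.81), a vessel transcription factor, and 1 lower, Sox18 (-0.42, and -0.26 without wt replicate 2). Erg lay near the lowest level of the table, at 3.461, 3.999 and 3.285 CPM in wt and 4.832, 7.266 and 6.487 CPM in ird1/ird1 (SE 0.229). Of 10 microglia and macrophage genes 1 was lower, the receptor gene Csf1r (-0.34), and of 18 choroid plexus and roof plate genes 0 were past it. Without wt replicate 2, Csf1r had -0.23 and 0 of the microglia and macrophage genes were lower. The table holds genes that passed a minimum level in every library, so 10 listed red blood cell genes and 10 listed microglia genes were not analysed here.

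The last question was whether the ird1/ird1 difference departs from that of gtf2i/gtf2i, the homozygous mutant of the other cross, measured against its own 3 wt brains. The crosses share no library. The difference between the 2 effects passed adjustment for 20 of 11708 genes (0.171%, edgeR quasi-likelihood test on 18 libraries). More genes passed with the title number as a replicate block, as given in the closing section. The count was 12 when ird1/ird1 replicate 3 was left out, 13 for ird1/ird1 replicate 1, 12 for gtf2i/gtf2i replicate 2, 13 for wt replicate 2 of the gtf2i cross and 723 for gtf2i/gtf2i replicate 3. Gtf2ird1 was higher by 1.52 on the log2 scale in gtf2i/gtf2i (edgeR adjusted p 5.61e-07), so its rise was not particular to ird1/ird1. The difference of -0.34 between the effects (SE 0.129) had an unadjusted p of 0.0165 and an adjusted p of 0.296 (edgeR).

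At an unadjusted p under 0.05 the difference was reached by 1517 of all genes (13%), with the ird1/ird1 effect the lower in 759 (6.48%) and the higher in 758 (6.47%). Histone genes had opposite medians in the crosses, -0.34 in ird1/ird1 and 0.19 in gtf2i/gtf2i. For 35 of the 53 (66%) the difference had such a p, with 34 of these lower in ird1/ird1, while 0 passed adjustment over all genes. Cytosolic ribosomal proteins had medians of -0.16 and 0.11, and for 23 of 74 (31.1%) the difference had such a p, with 23 lower in ird1/ird1. Pan-neuronal genes had medians of 0.13 and -0.21, with 15 of 35 (42.9%) past that p and 1 of these lower in ird1/ird1. Genes of intermediate progenitors and cortical neurons had medians of 0.07 and -0.39, with 14 of 25 (56%) past it and 2 of these lower. In ird1/ird1 the medians of these lists, in the order named, were -0.34, -0.15, 0.09 and -0.0031 without wt replicate 2. With the length trend removed they were -0.11, -0.03, 0.06 and -0.01. Medians with that trend removed are not given for gtf2i/gtf2i. The part of the length relation in these contrasts was not tested. Neurod2, a factor of excitatory neurons, was the 1 list member besides Gtf2i among the named genes that passed adjustment. Its log2 fold change was -0.29 in ird1/ird1 and -1.25 in gtf2i/gtf2i, a difference of 0.97 (SE 0.189, edgeR adjusted p 0.0318).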

How the data were processed

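RNA of whole brains was sequenced, per the labels' protocols after ribosomal RNA depletion with the NEBNext Ultra II kit. The submitters' processing notes name Trimmomatic, STAR, HTSeq and the build mm10, without versions. The deposited values are whole-number read counts per gene. Strand setting, annotation and treatment of reads with several matches are not given in the sources used here. The deposited table also has 1 transcript length per gene (other).

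Members and lists were chosen with earlier results of these data known. Counts of the 9 libraries of the ird1 cross were scaled by TMM, filtered with filterByExpr (0 genes removed) and tested with the quasi-likelihood test of edgeR 4.0.16 in R 4.3.3, with Benjamini-Hochberg adjustment over 11708 genes, 6 residual degrees of freedom and a biological coefficient of variation of 10%. CPM used TMM-scaled totals. The difference between crosses was fitted on 18 libraries. Totals were 3239117 to 7371483 counts, and 10 was the lowest count, so genes near the bottom have large counting error. Replicates were compared by chi-square of their counts, which was 2.9 to 17.7 per degree of freedom over the 9 pairs, so none was taken as a repeat of another.

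Named genes were the TFII-I family, genes passing adjustment, the 12 higher and 12 lower genes of smallest p with no overlap and a mean of at least 3 log2 CPM, 10 neighbours on each side of Gtf2ird1, and per list at most 4 members per direction at an unadjusted p under 0.05 without overlap plus the 2 of highest CPM. Exceptions are Hist1h2bl and H2afx, chosen after values were seen. Alternatives were DESeq2 1.42.0 and limma 3.58.1 (voom), other scalings and filters, other sets of libraries, a replicate block and a loess offset (span 0.5) on log length. The test was checked on simulated data.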

Additional observations from a re-analysis of the deposited data

Results flagged for a closer look

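For 2 of the named genes the ird1/ird1 effect differed from the gtf2i/gtf2i effect by the test of that difference. The log2 difference was 2.88 for Gtf2i (edgeR adjusted p 3.89e-14), which had -0.05 in ird1/ird1 and is the gene mutated in the other cross, where it had -2.93. It was 0.97 for Neurod2 (edgeR adjusted p 0.0318).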

How the results depend on the processing

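Gtf2ird1 passed adjustment in every fit, with a log2 fold change from 1.14 to 1.29 over the 9 fits that each left out 1 library. The count of genes passing was 1 in those 9 fits, 3 with DESeq2, 2 with voom and 2 (Hist1h4f, adjusted p 0.0156) with only the libraries of title number 11610. The count at an unadjusted p under 0.05, 1886 with all libraries, ran from 877 to 2507 when 1 library was left out. It was 742 with only the libraries of 11610 and 687 with the length trend removed and wt replicate 2 left out. These 2 settings, and leaving out libraries of the gtf2i cross, were chosen after seeing the data. The share of these genes that were higher was 47.8%, but 57.7% with a mean count of at least 50, 39.8% with upper-quartile scaling and 39.2% with the length trend removed, and 64.8% without ird1/ird1 replicate 2. The count for the difference between crosses ran from 12 to 723 over 18 fits.

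With the title number as a replicate block, 1 gene passed and 2000 had an unadjusted p under 0.05, and 83 passed for the difference between crosses. Of 15 pairs of ird1 cross libraries with the same number and different genotype labels 4 correlated above 0.1 (median 0.02), so the number was not used as a pairing. The gtf2i cross, where each number occurs once per genotype label, was not checked in this way. The other 237 genes named by the rule did not pass with all libraries. Among their 4880 values under alternatives 3 passed and 1 turned sign by more than its error, which says nothing of their size. Hist1h4f (-0.62) and Hist1h4a (-0.49) passed with DESeq2, and Hist1h4f (-0.71) passed with only 11610, where mt-Nd1 turned from 0.30 to -0.13. Hist1h2bl (-0.46), which the rule does not name, passed with voom. Of 903 list medians, 125 moved by more than the spread between ird1/ird1 libraries. The cause was not tested. DESeq2 gave no adjusted p for some named genes, which have no value under it.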
